A study of Labrus bergylta with 24 samples.

Results

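The comparison described here set ballan wrasse (Labrus bergylta) fed soyasaponin together with a prebiotic against wrasse fed soyasaponin alone, with RNA sequencing of the hindgut as the readout. The libraries were chosen by their diet labels, and they are 12 of the 24 libraries of the series, 6 fish on each of the 2 diets. The combined diet was the reference feed with 0.7% soyasaponin and 0.4% of a commercial prebiotic (Aquate SG). The soyasaponin diet was the same feed with 0.7% soyasaponin only, so both groups carried the soyasaponin and differed in the prebiotic. A prebiotic group (0.4% prebiotic, 6 fish) and a control group (the reference feed alone, 6 fish) gave the size of the soyasaponin response. All fish were acclimatized on the reference feed for 4 weeks and then fed their diet for 5 weeks. Each diet went to 2 tanks, and no fish is tied to a tank in the labels, so diet and tank cannot be told apart, and tests here take fish as independent units. The question was how large a reversal of the soyasaponin response by the prebiotic these fish exclude.

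Soyasaponins are amphiphilic triterpenoid glycosides of soybean that bind sterols in cell membranes, and in salmonids they are known for their part in the inflammation of the distal intestine that soybean meal provokes. The ballan wrasse is a cleaner fish without a stomach, so its gut depends on the intestine for digestion, and the hindgut takes up macromolecules and holds many immune cells. Prebiotics are feed ingredients that the host does not digest and that feed selected gut microbes, and they are given to fish to support the intestinal barrier. The deposited table identifies transcripts by LABE identifiers that it does not pair with gene names. The gene table used here held 0 of the 20751 identifiers, so neither the tissue nor any pathway could be checked against marker genes, and single transcripts appear by identifier.

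The libraries of the 2 diets were alike apart from depth. Combined libraries held 8.55 to 9.50 M recovered reads (median 9.01 M) and soyasaponin libraries 9.38 to 11.2 M (median 10.4 M; M, mega). Only the deepest combined library lay within the soyasaponin range. The means were 8.996 ± 0.360 M in combined and 10.3 ± 0.735 M in soyasaponin fish (SD, n = 6 each), which differed by an exact two-sided permutation test (p = 0.00649, adjusted p = 0.026 over 4 library measures). Thinning all libraries to equal reads, added after seeing the data, left the counts and limits below within 1.5 times their values, except for a count of 1 transcript described at the end. The number of detected transcripts, the share of the 100 most abundant transcripts and the median correlation with the other libraries gave exact permutation p of 0.251, 0.472 and 0.801. The first principal component of all 24 libraries held 31.5% of the variance. On it, combined fish ran from -52.7 to 53.7 and soyasaponin fish from -47.1 to 71.5, so the groups overlapped widely. Prebiotic replicates 4 and 5 had the highest values of all libraries on it, 113 and 108. They also had the lowest median correlations with the other libraries, 0.853 and 0.839. Prebiotic replicate 2 came next on both, at 81.8 and 0.880. Diet accounted for 7.38% of the squared distance among the 12 libraries (exact permutation p = 0.695 over all arrangements of the fish).

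In limma and edgeR, no transcript differed between combined and soyasaponin fish at an adjusted p under 0.05. With limma on log2(normalized count + 1), 0 of 17056 transcripts tested were called (0% of all), and the smallest adjusted p was 0.276. Without adjustment, 933 had a p under 0.05 (5.47%), and 407 of these were higher in combined fish. By edgeR 0 were called and 935 passed without adjustment. By DESeq2 7 were called, 2 higher and 5 lower in combined fish, and 1028 passed without adjustment. The smallest DESeq2 adjusted p, 6.28e-06, belonged to a transcript with a median of 0 in both groups (limma adjusted p = 0.998). The other higher call had medians of 16.3 in combined and 0.40 in soyasaponin fish (limma adjusted p = 0.781). The 5 lower calls had medians of 2.16 to 392 normalized counts in combined and 53.4 to 574 in soyasaponin fish. Their limma adjusted p ran from 0.276 to 0.581. All 6 combined fish lay above all 6 soyasaponin fish in 18 transcripts (0.106%) and below them in 35 (0.205%).

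A count of 0 does not show that the diets act alike, and the interval of each difference says how large a change was still possible. The 95% interval reached a median of 0.42 on the log2 scale to either side of the estimate, or 1.34-fold. For the most precise 5% of transcripts the reach was at most 1.14-fold and for the least precise 5% at least 3.04-fold. A 2-fold difference in either direction was excluded, by 2 one-sided limma tests with adjusted p under 0.05, for 13844 of 17056 transcripts (81.2%). A 1.5-fold difference was excluded for 8538 (50.1%), a 4-fold difference for 16217 (95.1%) and a 1.25-fold difference for 314 (1.84%). Abundant transcripts were measured more closely. In the top tercile of abundance, from a mean of 272 normalized counts upward, a 1.5-fold difference was excluded for 76.8% and a 2-fold difference for 93.5%. In the bottom tercile, below 67.6 normalized counts, the shares were 15.5% and 62.0%.

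**Figure D1:**
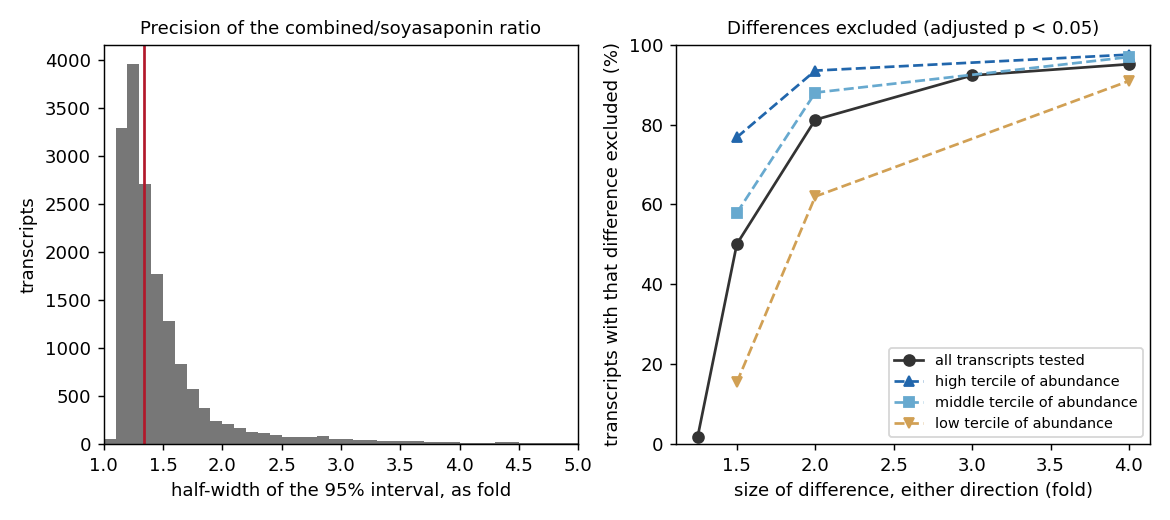
Left, the half-width of the 95% interval of the combined over soyasaponin ratio for each of the 17056 transcripts, as a fold, with the median of 1.34-fold as a red line (394 transcripts beyond 5-fold are not drawn). Right, the percent of transcripts for which a difference of the size on the x axis was excluded, for all transcripts and for terciles of abundance; it climbs from 1.84% at 1.25-fold to 81.2% at 2-fold for all transcripts.

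The transcripts with the strongest evidence of a difference show what a change would look like in these fish. They were taken as the 2 smallest p-values in each direction, so their differences describe the extremes of the table. LABE_00062358-RA ranged from 186 to 322 normalized counts in combined fish (median 203) and from 302 to 589 in soyasaponin fish (median 448). Only combined replicate 6 lay inside the soyasaponin range. The difference was -0.96 on the log2 scale (SE 0.18, 95% interval -1.33 to -0.60, limma adjusted p = 0.276). Without combined replicate 6 it was -1.08 and became the single transcript called by limma in any omission of a fish. DESeq2 also called it (adjusted p = 0.00127). Prebiotic fish averaged 293 and control fish 341 normalized counts, between the other 2 diets.

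LABE_00079329-RA had 0 to 20 reads in combined fish and 19 to 116 in soyasaponin fish, or medians of 2.68 and 55.8 normalized counts. Combined replicates 2 and 3, at 20.3 and 15.9 normalized counts, reached the lowest soyasaponin fish, and combined replicate 5 had 0 reads, which allows an expected count of up to 3. The difference was -3.41 (SE 0.72, limma adjusted p = 0.581). Control fish had a median of 5.996 and prebiotic fish one of 26.6, so the medians of combined and control fish were below those of both groups given a single addition. Control fish, at 4.04 to 43.1, and prebiotic fish, at 6.23 to 82.5, overlapped widely. Neither soyasaponin against control (limma adjusted p = 0.101) nor the interaction (limma adjusted p = 0.180) was called for it.

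The 2 transcripts with the smallest p among those higher in combined fish differed less. LABE_00028772-RA ranged from 111 to 131 normalized counts in combined fish (median 122) and from 55.8 to 117 in soyasaponin fish (median 64.1). Of the soyasaponin fish only replicate 3 reached the combined range. The difference was 0.80 (SE 0.19, limma adjusted p = 0.581). Control fish had a median of 126 and prebiotic fish one of 130, and against control the transcript fell in soyasaponin fish by 0.92 (limma adjusted p = 0.0243). In combined fish it was close to the control level, at -0.12 against control. This return uses the same low soyasaponin fish as the fall, so those fish shape both values. LABE_00051397-RA had a median of 44.1 in combined and 28.6 in soyasaponin fish, a difference of 0.64 (SE 0.15, limma adjusted p = 0.581). In it, 5 of the 6 combined fish lay above every soyasaponin fish. Combined fish, at 37.1 or more, also lay above every control fish, at 36.6 or less (control median 33.5, prebiotic median 37.4). Soyasaponin against control was not called for it (limma adjusted p = 0.431).

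**Figure D2:**
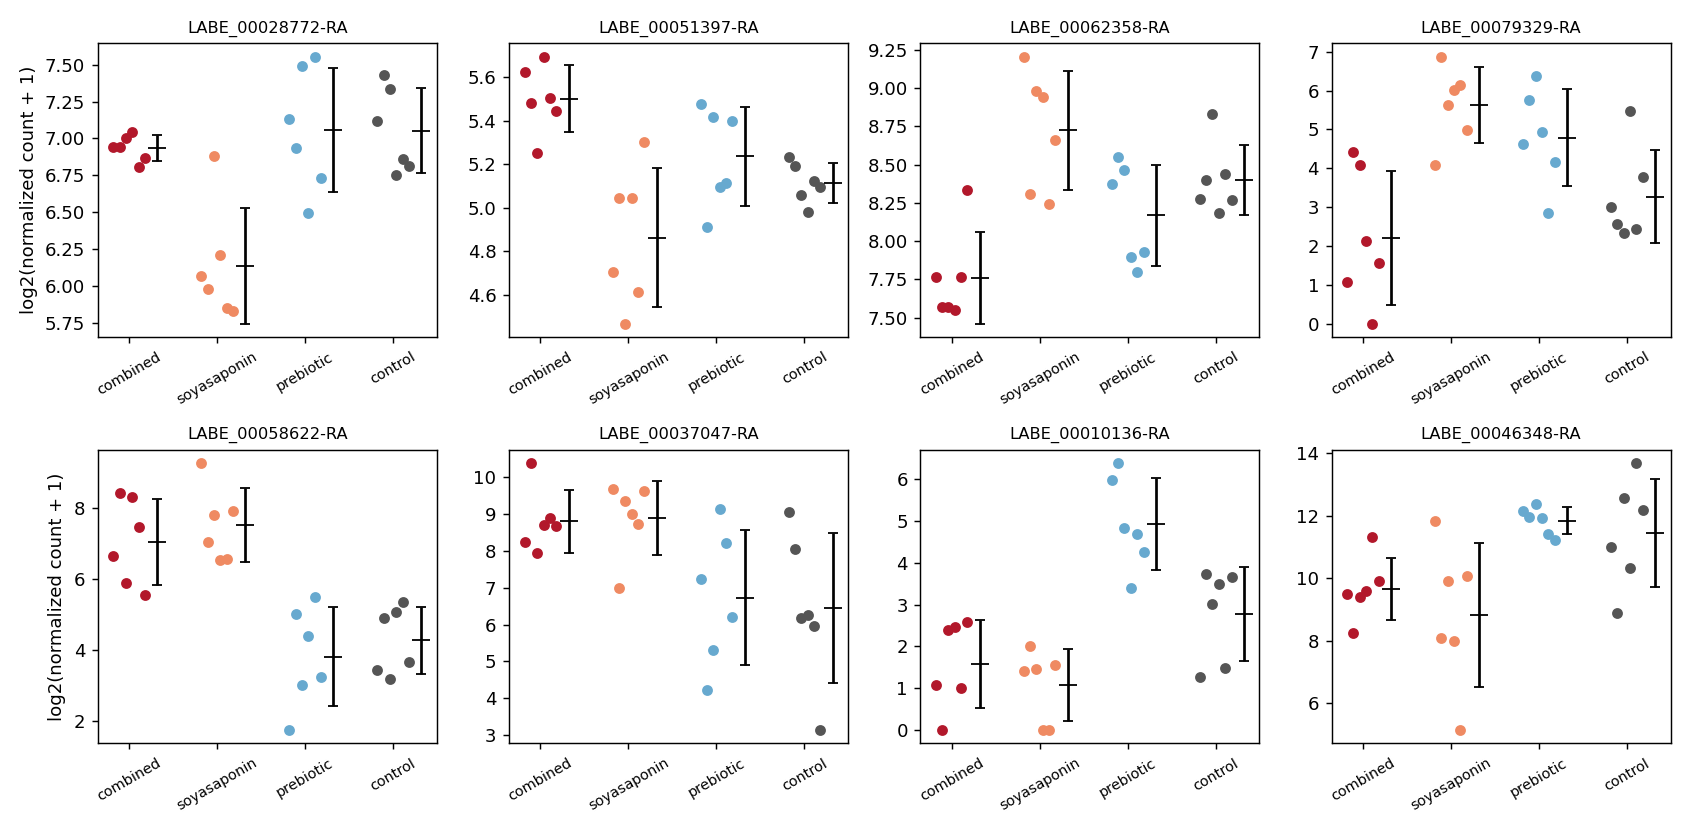
log2(normalized count + 1) of the 8 named transcripts in each fish of the combined, soyasaponin, prebiotic and control diets (n = 6 each), with mean ± SD beside the points. The top row holds the transcripts with the smallest p for combined against soyasaponin and the bottom row those with the largest soyasaponin main effect, where combined and soyasaponin fish overlap.

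A reversal concerns the transcripts that soyasaponin moves. They were chosen by the soyasaponin main effect, combined and soyasaponin fish together against prebiotic and control fish together. With equal numbers and spread, chance errors in that contrast are unrelated to those in combined minus soyasaponin. Both tests use the same estimate of each transcript's spread, however, so the choice favours transcripts with narrow intervals. In limma 1017 of 17056 transcripts had an adjusted p under 0.05 (5.96%), and this count serves only to fix 2 lists, 693 higher (4.06%) and 324 lower (1.9%) with soyasaponin. The choice has a known slant: a transcript that the prebiotic returned to control would have a smaller main effect and enter the lists less often. The spread was not quite equal, since the median SD over all transcripts was 0.29 in combined and 0.33 in soyasaponin fish on the log2 scale.

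Most transcripts that were higher with soyasaponin had a higher estimate in combined than in soyasaponin fish, but the spread between fish left the direction open. The median difference, combined minus soyasaponin, was 0.14 on the log2 scale over the 693, beside 0.01 over all 17056. The difference was above 0 in 559 of the 693 (80.7%), while 52.1% of all transcripts were above 0. Their median response to soyasaponin, soyasaponin minus control, was 0.36. None of the 693 passed the test of combined against soyasaponin. An unadjusted p under 0.05 was found for 79 (11.4%, beside 5.47% of all transcripts), 77 higher and 2 lower in combined fish. The choice of the list used the same estimate of spread as this limma test, which favours small p-values. The median half-width of the 95% interval was 0.33 in the list and 0.42 over all transcripts. A share above 5.47% is therefore no finding in itself. Among the 55 with a main effect of at least 2-fold the median difference was 0.41, with 44 above 0. By abundance the median was 0.18 in the bottom, 0.18 in the middle and 0.12 in the top tercile. These counts are over transcripts and not over fish, and the interval over fish given below, -0.06 to 0.38, includes 0. The list mean per fish had medians of 8.78 in combined and 8.76 in soyasaponin fish. Its mean difference of 0.16 was 0.07 without soyasaponin replicate 2, with the list chosen again. Transcripts returned to control enter the list less often and those raised further more often, so the choice favours differences above 0.

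Transcripts that were lower with soyasaponin were about as often higher as lower in combined against soyasaponin fish. The median difference over the 324 was -0.03, with 170 below 0 (52.5%) and 154 above 0, beside 47.9% below 0 among all transcripts. Their median response to soyasaponin was -0.59. None passed the test of combined against soyasaponin. An unadjusted p under 0.05 was found for 36 (11.1%, beside 5.47% of all transcripts), 20 higher and 16 lower in combined fish. Here too the choice of the list favours small p-values through the shared estimate of spread, so that share is no finding. The median half-width was 0.40, beside 0.42 over all transcripts. The 31 with a main effect of at least 2-fold had a median difference of -0.08. Over the 324 the quartiles of the difference were -0.18 and 0.17. These counts too are over transcripts and not over fish. The interval over fish given below, -0.19 to 0.23, includes 0 and leaves room for a difference in either direction.

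**Figure D3:**
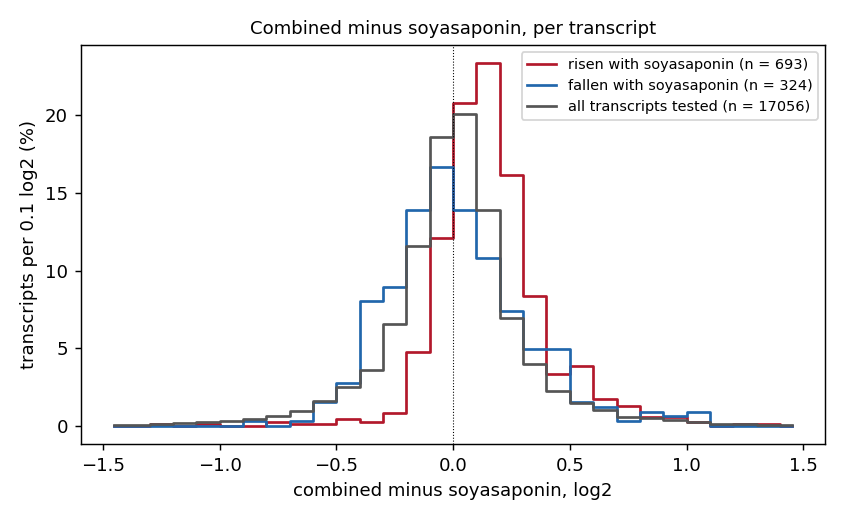
Distribution of combined minus soyasaponin, in log2 units, as the percent of transcripts per 0.1 log2, for the 693 transcripts higher and the 324 lower with soyasaponin and for all 17056 tested (104 of all lie beyond 1.5 log2 and are not drawn). The curve of the 693 sits to the right of 0 with a median of 0.14, and that of the 324 is centred near 0.

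Averaging each list within a fish gave a limit on the mean reversal of the list. For the 693 transcripts higher with soyasaponin, the mean log2(normalized count + 1) ran from 8.72 to 9.17 in combined fish (median 8.78) and from 8.41 to 8.91 in soyasaponin fish (median 8.76). It ran from 8.12 to 8.29 in prebiotic fish and from 8.01 to 8.54 in control fish. All 6 combined fish lay above every control fish, as did 4 of 6 soyasaponin fish. The list was chosen on these same fish, so that separation is partly fixed by the choice. Among fish given soyasaponin, soyasaponin replicates 2 and 3 were the lowest and combined replicate 2 the highest. The means were 8.85 ± 0.17 in combined, 8.69 ± 0.18 in soyasaponin and 8.23 ± 0.18 in control fish (SD, n = 6 each). The difference, combined minus soyasaponin, was 0.16, with a 95% interval of -0.06 to 0.38 from inverting the exact permutation test. The response, soyasaponin minus control, was 0.46 (95% interval 0.22 to 0.69).

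As a share of that response, taken as exact, the reversal was -35.6%, where a negative value lies further from control. The 95% interval of the difference, on that scale, ran from -83.8% to 12.7%. For this list, and with the response taken as exact, a mean reversal above 12.7% was thus excluded at that level. Transcripts that the prebiotic returned to control would enter the list less often, so the limit speaks for this list only. Taking the response at the low end of its own interval put the limit at 27.0%. The limit was 0.886% without soyasaponin replicate 1, and 21.5% and 19.2% without soyasaponin replicates 2 and 3. It moved by less than 1.5 times on leaving out any 1 of the other 21 fish. Selection of the list on the main effect favours a large response, which makes these percentages smaller than they would be for an unselected response.

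For the 324 transcripts lower with soyasaponin, the mean ran from 6.90 to 7.30 in combined fish (median 7.20) and from 6.93 to 7.39 in soyasaponin fish (median 7.13). It ran from 7.58 to 7.81 in prebiotic and from 7.70 to 7.97 in control fish. Every combined and every soyasaponin fish lay below every control fish, and the 2 soyasaponin-fed groups overlapped almost fully. The list was chosen on these same fish, and that choice favours both the separation from control and a large response. The means were 7.16 ± 0.14 in combined, 7.14 ± 0.18 in soyasaponin and 7.81 ± 0.10 in control fish (SD, n = 6 each). The difference of 0.02 had a 95% interval of -0.19 to 0.23, against a response of -0.67 (-0.85 to -0.48). With the response taken as exact, the reversal was 2.74% of it (95% interval of the difference on that scale -28.8% to 34.5%). Transcripts returned to control would enter this list less often too, so the limit speaks for this list only. With the response at the low end of its interval the limit was 48.1%, and on leaving out 1 fish at a time it ran from 24.2% to 43.7%.

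**Figure D4:**
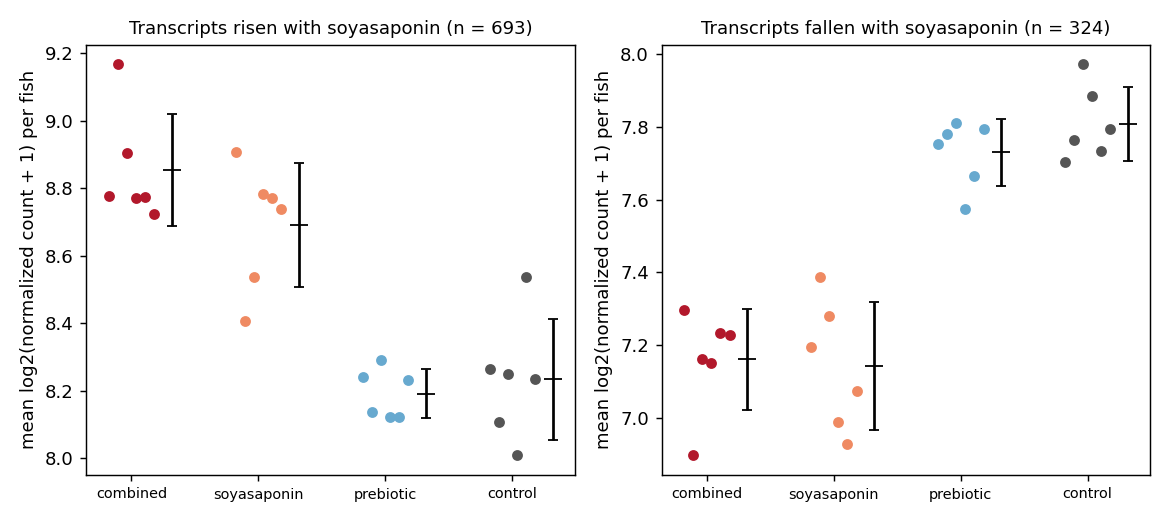
Mean log2(normalized count + 1) per fish over the transcripts higher (left, 693) and lower (right, 324) with soyasaponin, for the combined, soyasaponin, prebiotic and control diets (n = 6 each), with mean ± SD beside the points. Combined and soyasaponin fish overlap in both panels, and all combined fish lie on the far side of every control fish. The lists were chosen on these fish, so the separation from control is partly fixed by the choice.

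Measured against the prebiotic fish in place of the controls, the soyasaponin response was also still there. Over the 693 transcripts, combined minus prebiotic was 0.66 (95% interval 0.51 to 0.84), beside 0.46 for soyasaponin minus control. Over the 324 it was -0.57 (-0.72 to -0.43), beside -0.67. The lists were chosen on these same fish, so that a response is present is no finding, and the 2 values share no fish. The interaction of the additions was called for 0 transcripts in limma (0% of all), 0 in edgeR and 117 in DESeq2. Without adjustment, 2174 of 17056 had a p under 0.05 for it in limma, beside 933 for combined against soyasaponin. In edgeR the counts were 2296 beside 935, and in DESeq2 2558 beside 1028. A count of 0 called therefore does not show that the interaction is absent.

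Transcript by transcript, the limits on a reversal were wide. The 95% half-width of combined minus soyasaponin was, at the median, 88.5% of the soyasaponin response for the 693 and 70.2% for the 324. It exceeded the whole response in 254 and 92 of them. A complete reversal was called excluded where combined fish still differed from control fish in the direction of the soyasaponin response with a limma adjusted p under 0.05. That held for 254 of the 693 (36.7%) and 95 of the 324 (29.3%), together 349, beside 3.2% of all transcripts. The lists share combined and control fish with that test, so a high share was to be had from the choice alone. A reversal of 75% or more was excluded for 94 and 27 (0.932% of all transcripts), one of 50% or more for 0 and 1 (0.00586%) and one of 25% or more for 0 and 0 (0%). Without adjustment, a reversal of 25% or more was excluded for 240 and 49, beside 5.12% of all transcripts. The choice of the lists favours the counts at 75%, 50% and 25% too, so a share above that of all transcripts is no finding. Among transcripts with a main effect of at least 2-fold, a complete reversal was excluded with an adjusted p under 0.05 for 29 of 55 and 10 of 31, and below 2-fold for 225 of 638 and 85 of 293.

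These counts rested on single fish. In place of the 349, with the lists chosen again on each omission, omitting combined replicates 2, 3 or 4 gave 18, 176 or 199. Omitting control replicates 1 to 5 in turn gave 197, 152, 165, 181 and 579. In place of the 121 excluded at 75%, omitting combined replicates 1 to 5 in turn gave 63, 0, 1, 26 and 77, omitting control replicates 1 to 6 gave 40, 1, 8, 15, 399 and 73, and omitting soyasaponin replicate 3 gave 79.

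**Figure D5:**
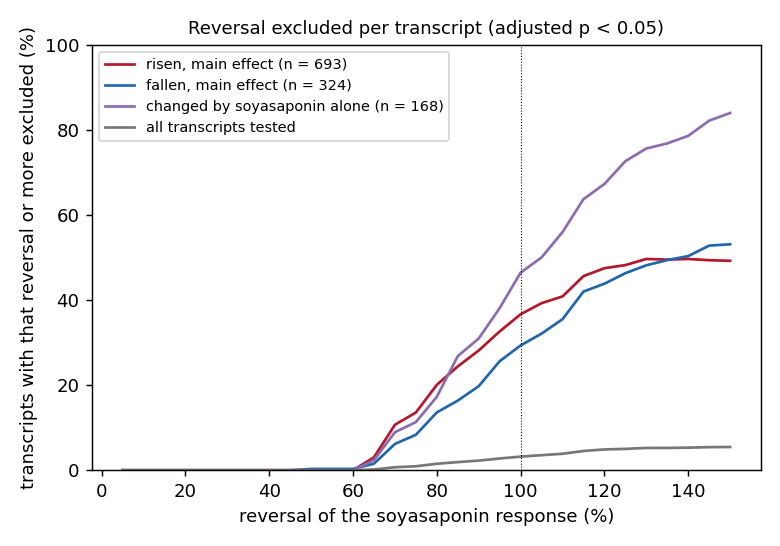
Percent of transcripts for which a reversal of at least the size on the x axis (as a percent of soyasaponin minus control) was excluded with an adjusted p under 0.05, for the 693 higher and 324 lower with soyasaponin, the 168 changed by soyasaponin against control, and all transcripts. The curves stay at or below 0.309% up to a reversal of 60% and reach 36.7% and 29.3% of the 2 main-effect lists at a complete reversal, marked by the dotted line.

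A list chosen from soyasaponin against control alone gave larger apparent reversals, and this choice is slanted toward them because the same soyasaponin fish define the response and its return. That contrast called 168 transcripts (0.985%), 47 higher and 121 lower in soyasaponin fish. Over the 121, the mean per fish ran from 6.69 to 7.25 in combined, 6.30 to 7.01 in soyasaponin and 7.61 to 7.997 in control fish. Combined minus soyasaponin was 0.34 (95% interval 0.01 to 0.68), a reversal of 32.05% with a limit of 63.3% when the response is taken as exact. Prebiotic fish, which received no soyasaponin, stood 0.62 below control fish on the same list. Over the 47, the difference was -0.10 (-0.21 to 0.02), a reversal of 12.2% with a limit of 27.2%, again with the response taken as exact. All 6 combined fish lay above every control fish over the 47 and below every control fish over the 121. Over the 47, prebiotic fish also stood 0.38 above control fish. All of them, at 8.72 or more, lay above every control fish, at 8.53 or less. The control fish helped to choose the 168 transcripts, so these distances from control are partly fixed by the choice and are no finding. With this list the contrast for a reversal of exactly 50% would be unrelated to the choice if soyasaponin and control fish had equal spread. The median SD over the 121 was 0.40 in soyasaponin and 0.32 in control fish, so that held only roughly. A reversal of 50% or more was excluded for 0 of the 168. At an unadjusted p under 0.05 it was excluded for 45 of them and for 10.2% of all transcripts. One of 75% or more was excluded for 19 (11.3%), 11 of the 47 and 8 of the 121, beside 0.932% of all transcripts. Unlike the contrast at 50%, the one at 75% is related to the choice and favoured by it, so that share is no finding.

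That list itself hung on single fish. Omitting control replicates 1 to 4 in turn gave 76, 43, 0 and 82 transcripts, omitting soyasaponin replicates 1, 2, 4, 5 and 6 gave 103, 622, 46, 7 and 4, and omitting prebiotic replicate 1 or combined replicate 3 gave 90 or 80. In place of the 19, omitting control replicates 1 to 5 in turn gave 10, 0, 0, 3 and 70, omitting soyasaponin replicates 2, 4, 5 and 6 gave 54, 9, 1 and 0, omitting combined replicates 2 to 5 gave 0, 0, 4 and 11, and omitting prebiotic replicate 1 gave 11. The count of 0 at 50% was 27 or 1 once control replicate 5 or 6 was left out.

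The largest single responses to soyasaponin varied widely between fish on the same diet. LABE_00058622-RA, the largest rise by main effect, ranged from 45.5 to 342 normalized counts in combined fish (median 137) and from 91.3 to 614 in soyasaponin fish (median 177). Its highest control fish had 40.1, below every fish of both soyasaponin diets. The difference was -0.48 (SE 0.63, 95% interval -1.78 to 0.83) beside a response of 3.25 against control. Read against that response, the interval ran to a reversal of 54.9%, and a complete reversal was excluded (limma adjusted p = 0.0232). The choice of this transcript by main effect used the same combined and control fish, and so favours that exclusion and the separation from control. The difference ran from -0.75 without combined replicate 2 to -0.13 without soyasaponin replicate 1.

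LABE_00037047-RA ranged from 243 to 1332 in combined fish (median 409) and from 125 to 822 in soyasaponin fish (median 576). The groups overlapped, and the difference of -0.09 (SE 0.82) had an interval of -1.79 to 1.60 beside a response of 2.45. With that response taken as exact, the interval ran to a reversal of 73.1%. Soyasaponin against control was not called (limma adjusted p = 0.135), and a complete reversal was not excluded (limma adjusted p = 0.1002). Combined replicate 2 alone stood above all soyasaponin fish.

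LABE_00046348-RA, an abundant transcript that was lower with soyasaponin, ranged from 303 to 2517 in combined fish (median 740) and from 34.2 to 3588 in soyasaponin fish (median 609). The difference was 0.82 (SE 0.83, 95% interval -0.89 to 2.54) beside a response of -2.60. With that response taken as exact, the interval ran to a reversal of 97.7%. Soyasaponin against control was not called (limma adjusted p = 0.116), and a complete reversal was not excluded (limma adjusted p = 0.224). The difference was 0.086 without soyasaponin replicate 5 and 1.42 without soyasaponin replicate 1. In edgeR and DESeq2, which compare mean counts, the difference was -0.04 and -0.06. LABE_00010136-RA had 0 to 5 reads in combined and 0 to 3 in soyasaponin fish, against 2 to 15 in control fish. Both groups given soyasaponin were near 0 reads, so no ratio between them is given. No combined fish had more than 5 reads, while the control median was 8.64 normalized counts. Prebiotic fish ranged from 9.49 to 82.6 normalized counts, with a mean of 37.5 beside 7.43 in control fish. The main effect of -2.52 includes these high prebiotic fish, and soyasaponin against control was not called for this transcript (limma adjusted p = 0.158).

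One transcript excluded a reversal of 50% or more with all 24 fish, and it is named after its values were seen. LABE_00013050-RA ranged from 209 to 290 normalized counts in combined fish (median 261), from 312 to 425 in soyasaponin fish (median 366) and from 370 to 531 in control fish (median 414). Combined fish lay below every soyasaponin fish, on the side away from control. Prebiotic fish, which received no soyasaponin, ranged from 304 to 445, with a mean of 364 beside 362 in soyasaponin fish. The response, soyasaponin minus control, was small, at -0.25, and soyasaponin against control was not called for this transcript in limma. The difference was -0.49 (SE 0.11, 95% interval -0.72 to -0.25, limma adjusted p = 0.581), and the contrast with the midpoint of soyasaponin and control was -0.61 (limma adjusted p = 0.0436). Its call was lost after thinning to equal reads, and the count over both main-effect lists ran from 0 to 104 on leaving out 1 fish, with 104 without control replicate 5. It was 0 without 16 of the 24 fish, each left out alone, and 2 without control replicate 6.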

How the data were processed

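Hindgut RNA of 24 ballan wrasse was sequenced as stranded mRNA libraries, per the labels' protocols. The deposited table holds a signal per transcript and library: read counts divided by a size factor, made by the authors. cutadapt, TopHat2, featureCounts (Subread) and DESeq2 are named in the submitters' processing notes. The genome build is not given in the sources used here, nor is any tool version. Every value was a whole multiple of the lowest nonzero value in its column, for 100% of 498024 values (tolerance 1e-06), 8.42 to 12.5 M reads per library; 4 columns have size factors within 1.2% of 1, where steps are hard to tell from whole numbers, yet their decimals fit.

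log2(normalized count + 1) of the 17056 transcripts with a mean of at least 10 was fitted with limma 3.58.1 (R 4.3.3, intensity trend, 4 diets together, two-sided, Benjamini-Hochberg over all); 3695 were left out. The pseudocount understates changes of rare transcripts. Exact permutation tests used all arrangements of 12 fish (smallest p 0.00216), and the test of distances was added after seeing the data. edgeR 4.0.16 and DESeq2 1.42.0 on recovered reads were alternatives, and DESeq2 gave no adjusted p for 13 transcripts (2980 for the interaction). Intervals cover fish-to-fish spread. The tests were checked on simulated counts.

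Identifiers named are the 2 smallest p-values per direction for combined against soyasaponin, the 2 largest main effects per direction, and LABE_00013050-RA. Lists and comparisons were chosen with earlier results of these data known. Replicate numbers follow record order. Same-diet libraries differed by more than sampling noise (chi-square per degree of freedom at least 18.1 in 60 pairs).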

Additional observations from a re-analysis of the deposited data

Results flagged for a closer look

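In 7 of 40 groups of 6 fish examined, 1 fish stood far from the other 5 by Dixon's criterion. For normally distributed values, chance meets that criterion in about 1 group in 20. The named transcripts were examined as normalized counts without a log scale, so that rate does not strictly apply to them. Combined replicate 2 had the lowest mean over the 324 transcripts lower with soyasaponin, 6.90 with the next fish at 7.15 (log2 units). Combined replicate 2 also had 1332 normalized counts of LABE_00037047-RA, with the next combined fish at 471. Combined replicate 6 had 322 of LABE_00062358-RA, with the next at 217, and combined replicate 5 had 2517 of LABE_00046348-RA, with the next at 968. Soyasaponin replicate 1 had 614 of LABE_00058622-RA and 3588 of LABE_00046348-RA, with the next soyasaponin fish at 242 and 1080. Soyasaponin replicate 3 had 117 of LABE_00028772-RA, with the next at 72.8.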

How the results depend on the processing

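Under the alternatives fixed at the outset (pseudocounts of 0.5 and 5, no filter or a mean of at least 50, quantile normalization, array quality weights, the 2 diets alone, edgeR, DESeq2, an adjusted p under 0.1) and 3 chosen after seeing the data (thinning, the first principal component as covariate, omission of prebiotic replicates 4 and 5), 0 transcripts differed between combined and soyasaponin fish except in DESeq2 (7). The limits on the mean reversal, with the response taken as exact, stayed at 8.24% to 14.3% for risen and 28.1% to 40.9% for fallen transcripts. That covers every setting where they were computed but the list from soyasaponin against control. They were not computed with weights, the covariate, edgeR, DESeq2 or the 2 diets alone. With the list from soyasaponin against control, the difference was -0.10 for risen and 0.34 for fallen transcripts, and the limit for fallen ones 63.3%. Counts moved more. Quantile normalization gave 79 transcripts for soyasaponin against control, a complete reversal excluded for 220, and 75% excluded for 50 (7 in the soyasaponin-alone list). Array quality weights gave 1726 main-effect and 1054 soyasaponin-alone transcripts, with 981, 582 and 146 excluding 100%, 75% and 50%, and 281 and 55 of the soyasaponin-alone list excluding 75% and 50%. DESeq2 gave 1603, 610 and, for the interaction, 117. Against prebiotic fish, 75% was excluded for 188 and, in the soyasaponin-alone list, 0. Without prebiotic replicates 4 and 5 the soyasaponin-alone list held 276, with 75% excluded for 37 of them and for 213 of the main-effect list. With the first principal component it held 320, with 36 at 75%, and 2 main-effect transcripts excluded 50%. That count was 0 with no filter, with thinning, and without prebiotic replicates 4 and 5. The cause was not tested. LABE_00046348-RA turned to -0.042 in edgeR and -0.057 in DESeq2.

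Leaving out each of the 24 fish in turn gave 0 to 1 transcripts for combined against soyasaponin, 13460 to 13908 with a 2-fold difference excluded, 647 to 1538 with a main effect (647 without combined replicate 2, 1538 without soyasaponin replicate 2), 0 to 622 for soyasaponin against control and 0 to 1 for the interaction. A reversal was excluded at 100% for 18 to 579, at 75% for 0 to 399 and at 50% for 0 to 104, and in the soyasaponin-alone list at 75% for 0 to 70 and at 50% for 0 to 27. The mean difference ran from 0.07 to 0.21 for risen and from -0.05 to 0.11 for fallen transcripts. LABE_00037047-RA ran from -0.48 to 0.079, changing sign without soyasaponin replicates 1 or 6 or combined replicates 1 or 3. No paired analysis was possible because the labels give no number shared between diets. The limit of 3 reads for a count of 0 covers counting error only.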
